A study of Mus musculus with 7 samples.

Results

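The 10 genes studied here move water, salt or bicarbonate across the uterine epithelium, and they were followed through 7 RNA-seq libraries of mouse endometrial epithelial cells. They are the aquaporins Aqp1, Aqp3, Aqp5 and Aqp8, the chloride channel gene Cftr, the chloride channel accessory gene Clca1, the 3 subunits Scnn1a, Scnn1b and Scnn1g of the epithelial sodium channel, and the carbonic anhydrase Car2. The members were matched by name, and 10 of 10 were found among the 24353 rows of the deposited table, where they are written in capitals as AQP1, AQP3, AQP5, AQP8, CFTR, CLCA1, SCNN1A, SCNN1B, SCNN1G and CAR2. All libraries came from C57BL/6 female mice without ovaries, oophorectomized at 6 to 7 weeks of age, so every group lacked hormones from its own ovaries. Of these mice, 18 were randomized, 6 per arm, to vehicle, to subcutaneous tamoxifen at 0.5 mg per day, or to the same tamoxifen dose together with a daily 30 mg/kg of alpelisib (the combination), and 2 mice carried an estradiol pellet of 0.01 mg that releases over 60 days. Treatment lasted 28 days. There were 2 libraries each with estradiol, tamoxifen and tamoxifen plus alpelisib, labelled as mouse 1 and mouse 2, and 1 with vehicle. The labels do not state if the vehicle library stands for 1 mouse or several, and every difference from vehicle rests on that library. Tamoxifen binds the estrogen receptor and, as a selective modulator of it, acts much like estrogen on the uterus. Alpelisib is an inhibitor of PI3K selective for its alpha isoform.

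The fluid of the uterine lumen is set by the balance of secretion and absorption. Cftr secretes chloride and bicarbonate, carbonic anhydrases supply the bicarbonate, the epithelial sodium channel takes up sodium with water following, and aquaporins let water cross the membranes. Estrogen is known to promote fluid accumulation in the rodent uterus, with more Cftr, and absorption through the sodium channel is linked to the closing of the lumen around implantation.

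Values are FPKM, fragments scaled by transcript length and by the size of the library, which allows levels of different genes to be set side by side. The FPKM summed over genes lay between 264322 and 403562 per library. Genes with a single transcript put the depth near 16 to 18.5 M fragments in 6 libraries, while in estradiol 2 only 21 genes lay at the lowest step against 122 to 166 in the others. Of 12 epithelial markers, 12 were listed above 0 in every group. So were all 15 stromal markers, so being listed above 0 does not identify the cell type. The epithelial markers had a summed FPKM of 7331 in vehicle, 2859 to 3381 with estradiol, 4930 to 6557 with tamoxifen and 6698 to 7249 with tamoxifen plus alpelisib. Stromal markers summed to 287.2, 221.6 to 223.2, 66.05 to 66.35 and 130.1 to 138.1 in the same order. Transcripts used as stromal markers were thus present in each group, and the cells they came from were not determined. The ribosomal RNA precursor Rn45s was highest in the estradiol libraries, at 764.0 and 2276 FPKM against 189 to 530.4 in the other 5, and its part in the estradiol results was not tested. In such bulk samples, fewer cells of a type and less RNA per cell cannot be told apart.

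Differences were tested with limma on log2(FPKM + 1) over the 12314 genes that reached an FPKM of 1 in at least 1 library, and a gene is said to have risen or fallen at an adjusted p under 0.05. Of the 10 members, 4 (Aqp5, Clca1, Cftr and Car2) were at an FPKM of at least 1 in every library, 5 in some libraries only, and Scnn1g in none, so that 9 were tested. With tamoxifen against vehicle 5 members rose (Aqp5, Aqp8, Clca1, Cftr and Car2) and 2 fell (Aqp1 and Scnn1a), where 39.0% of all genes were called, 14.9% higher and 24.1% lower. With estradiol 4 rose (Clca1, Cftr, Scnn1b and Car2) and 2 fell (Aqp5 and Scnn1a), against 35.5% of all genes, 22.7% higher and 12.8% lower. With tamoxifen plus alpelisib against vehicle 6 rose, the 5 that rose with tamoxifen and Aqp3, and 2 fell, Aqp1 and Scnn1a, against 34.9% of all genes, 13.1% higher and 21.8% lower. Behind that last share are 4299 genes, which became 1900 and 1977 without combination library 1 and 2, and 6985 with only the compared groups in the fit. The median log2 fold change of the 9 tested members was 1.10, 0.63 and 1.69 in these comparisons, beside -0.12, 0.12 and -0.15 over all genes. After median-of-ratios scaling of the libraries the last 3 medians were 0.03, -0.00 and 0.00. That scaling moved the share of higher genes among all calls from 38.2% to 50.1% with tamoxifen, 64.0% to 48.3% with estradiol and 37.7% to 51.5% with the combination. The 3 comparisons share the vehicle library, and members that passed the filter only where they were high enter these figures, so the shares describe the members and nothing more.

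**Figure D1:**
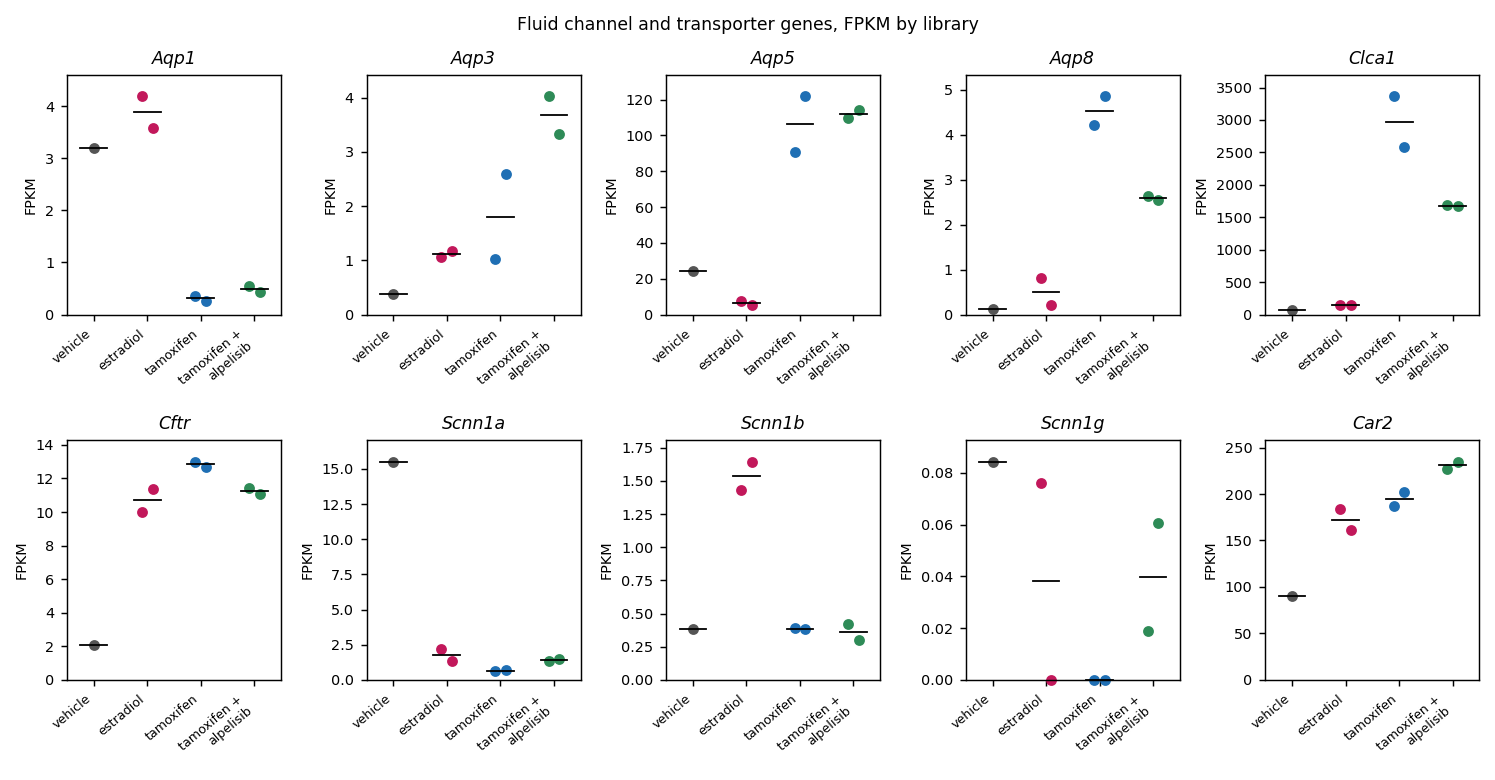
FPKM of each of the 10 genes (vertical axes, linear, each from 0) in each of the 7 libraries by treatment group (horizontal axes); points are libraries and the black line is the group mean. Clca1 reached 2583 to 3364 with tamoxifen against 66.7 in vehicle, while Scnn1a stood at 15.5 in vehicle and at 2.17 or below elsewhere.

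Among the water channels, Aqp5, the apical water channel of secretory glands, was the most abundant in each group. Its FPKM was 24.3 in vehicle, 7.83 and 5.42 with estradiol, 90.9 and 121.8 with tamoxifen, and 110.0 and 114.0 with the combination. Tamoxifen and estradiol thus stood on opposite sides of vehicle, with no overlap. Aqp5 rose with tamoxifen (log2 fold change 2.07 ± 0.26 SE, adjusted p = 0.00199) and fell with estradiol (-1.75 ± 0.26, adjusted p = 0.00486). Between tamoxifen and estradiol the difference was 3.82 ± 0.22 (adjusted p = 0.000131), about 14.1-fold on this scale. The summed epithelial markers were also lowest with estradiol. Of these 12 genes, 4 fell with estradiol against vehicle (Cdh1, Krt8, Krt18 and Cldn4) and 0 rose. Over all genes 12.8% fell and 22.7% rose. The other 8 did not pass, among them Epcam, at 205.6 in vehicle and 218.2 with estradiol. The part of these markers in the low Aqp5 value was not tested. Adding alpelisib left Aqp5 within the range of the tamoxifen libraries (0.09 ± 0.22, 95% interval -0.43 to 0.61).

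Aqp8, a channel for water that is also known to pass ammonia, was at an FPKM of 0.115 in vehicle, 0.804 and 0.210 with estradiol, 4.21 and 4.85 with tamoxifen, and 2.63 and 2.55 with the combination. The order was tamoxifen, then the combination, then estradiol, then vehicle, and the last 2 did not differ beyond the threshold (0.41 ± 0.25, adjusted p = 0.252). That changed only where estradiol 2 was left out (0.69, adjusted p = 0.0348; 0.0348 to 0.571 over the alternatives). Aqp8 rose with tamoxifen against vehicle (2.31 ± 0.25, adjusted p = 0.00114) and was higher with tamoxifen than with estradiol (1.90 ± 0.21, adjusted p = 0.000954). Its low values make these fold changes small relative to the ratio of the FPKM, since 1 was added before taking logs. Only the tamoxifen and combination libraries reached an FPKM of 1, so Aqp8 entered the test through the groups where it was high.

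Aqp1, best known from endothelium and red blood cells, moved the other way. Its FPKM was 3.20 in vehicle, 4.19 and 3.57 with estradiol, 0.360 and 0.262 with tamoxifen, and 0.556 and 0.443 with the combination. Only the vehicle and estradiol libraries reached an FPKM of 1, so Aqp1 entered the test through them. Vehicle and estradiol did not differ beyond the threshold (0.21 ± 0.17, adjusted p = 0.354), whereas Aqp1 fell with tamoxifen against both vehicle (-1.68 ± 0.17, adjusted p = 0.00077) and estradiol (-1.89 ± 0.14, adjusted p = 0.000271). Endothelial markers were also lower with tamoxifen. Of 12 such genes 11 were tested, and 7 fell and 2 rose with tamoxifen against vehicle, where 24.1% of all genes fell and 14.9% rose. With estradiol 4 fell and 0 rose, where 12.8% of all genes fell and 22.7% rose, while Aqp1 did not pass. Their summed FPKM was 28.7 in vehicle, 15.5 to 21.4 with estradiol, 8.68 to 9.19 with tamoxifen and 4.19 to 5.58 with tamoxifen plus alpelisib. The junction gene Cldn5 went from 7.54 in vehicle to 0.537 ± 0.0871 (SD, n = 2) with tamoxifen and was listed at 0 in both combination libraries. Erythroid markers went the other way with tamoxifen. Their summed FPKM was 36.2 in vehicle, 89.1 to 129.9 with estradiol, 1116 to 1535 with tamoxifen and 292.4 to 312.2 with the combination. Of 5 tested, 5 rose and 0 fell with tamoxifen against vehicle, where 14.9% of all genes rose and 24.1% fell. The part of endothelial cells or red blood cells in the Aqp1 difference was not tested.

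Aqp3, an aquaglyceroporin that also carries glycerol, was present at an FPKM of 0.372 in vehicle, 1.07 and 1.16 with estradiol, 1.02 and 2.59 with tamoxifen, and 4.02 and 3.33 with the combination. The 2 tamoxifen libraries lay far apart, and 1 of them lay below both estradiol libraries. Only the combination differed from vehicle beyond the threshold (1.76 ± 0.33, adjusted p = 0.00924) and from estradiol (1.14 ± 0.27, adjusted p = 0.013). With estradiol against vehicle the value was 0.63 ± 0.33 (adjusted p = 0.184; 0.0492 to 0.337 over the alternatives), and it passed without either tamoxifen library. The call of the combination against vehicle was lost without tamoxifen plus alpelisib 1 (adjusted p = 0.0528; 0.00207 to 0.0528 over the alternatives) and that against estradiol without that library or either estradiol library (0.00295 to 0.0785). For tamoxifen against vehicle the value was 0.97 ± 0.33 (adjusted p = 0.0585; 0.00997 to 0.132 over the alternatives), and it passed without tamoxifen 1 at 1.39, after scaling at 1.06 and with a pseudocount of 0.1 at 1.88. Against estradiol it also passed without tamoxifen 1 (0.76, adjusted p = 0.0273; 0.0273 to 0.805). Aqp3 is also a gene of stratified epithelium, and the sum of squamous keratinocyte markers followed the same group order. Single markers did not all do so. Krt14 was at 61.1 with estradiol and 35.0 with tamoxifen, and Lor was highest in vehicle (18.7). The summed FPKM over 14 genes was 60.3 in vehicle, 180.8 to 182.2 with estradiol, 437.7 to 482 with tamoxifen and 804 to 816.7 with the combination. Sprr1b and Krtdap were above 0 in 1 library each, Sprr1b in combination library 1 (0.0899) and Krtdap in combination library 2 (1.21). Of 11 tested markers, 7 rose and 1 fell in the combination against vehicle, where 13.1% of all genes rose and 21.8% fell. Their part in the Aqp3 values was not tested.

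The promoters of the water channels are shown because Aqp5 and Aqp8 both rose with tamoxifen while Aqp1 fell. The sequences are RefSeq's on build GRCm38.p6. The table of promoters used here was matched for 7 of the 10 members, and Clca1, Scnn1a and Car2 were not matched. The 250 bases before the annotated start are printed 5′ to 3′, for Aqp5 (chr15:99590778-99591027, plus strand), Aqp8 (chr7:123462044-123462293, plus strand) and Aqp1 (chr6:55336049-55336298, plus strand), with motif matches in capitals.
Aqp5: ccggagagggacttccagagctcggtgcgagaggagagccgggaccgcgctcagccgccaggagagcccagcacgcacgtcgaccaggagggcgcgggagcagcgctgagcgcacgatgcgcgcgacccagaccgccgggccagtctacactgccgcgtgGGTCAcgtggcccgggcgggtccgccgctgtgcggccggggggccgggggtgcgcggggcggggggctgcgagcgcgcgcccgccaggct
Aqp8: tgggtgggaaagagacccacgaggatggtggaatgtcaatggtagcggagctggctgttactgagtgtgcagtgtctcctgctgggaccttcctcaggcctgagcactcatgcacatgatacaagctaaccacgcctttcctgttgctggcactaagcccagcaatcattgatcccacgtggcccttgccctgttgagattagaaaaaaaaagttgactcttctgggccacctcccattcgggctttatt
Aqp1: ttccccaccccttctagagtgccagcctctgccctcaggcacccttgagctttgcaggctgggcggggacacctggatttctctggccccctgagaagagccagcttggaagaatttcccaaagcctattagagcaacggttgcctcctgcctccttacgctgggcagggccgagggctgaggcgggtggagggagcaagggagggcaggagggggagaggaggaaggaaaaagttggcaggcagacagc
Both strands were searched for the palindromic estrogen response element GGTCANNNTGACC, its half-site GGTCA, which lies inside it, the forkhead motif TGTTTAC and the AP-1 motif TGANTCA. Aqp5 held 1 half-site, from -90 to -86 relative to the start, and Aqp8 and Aqp1 held no match. Of the other 4 members with an entry, Scnn1b and Scnn1g each held 1 half-site and Cftr and Aqp3 had no match. Among 32851 promoters of the same length, 35.2% held the half-site, 0.0639% the full element, 3.17% the forkhead motif and 6.75% the AP-1 motif. G and C made up 78.4% of the Aqp5 window, 52.4% of that of Aqp8 and 62% of that of Aqp1, against a median of 52.4% over all promoters. These matches are a description of the letters and say nothing of binding.

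Chloride secretion was represented by Cftr and Clca1. Cftr, the chloride and bicarbonate channel regulated by cyclic AMP, was present at an FPKM of 2.06 in vehicle, 9.99 and 11.4 with estradiol, 13.0 and 12.7 with tamoxifen, and 11.4 and 11.1 with the combination. All 6 treated libraries lay far above vehicle and close to each other. The log2 fold change against vehicle was 1.93 ± 0.15 with estradiol (adjusted p = 0.000729), 2.18 ± 0.15 with tamoxifen (adjusted p = 0.000251) and 2.0 ± 0.15 with the combination (adjusted p = 0.00038). Tamoxifen and estradiol differed by 0.25 ± 0.13 (adjusted p = 0.152), which became 0.58 (adjusted p = 0.0179; 0.0179 to 0.315 over the alternatives) after median-of-ratios scaling of the libraries.

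Clca1 encodes a secreted protein of mucous cells that is not itself a channel and modulates the calcium-activated chloride channel Ano1. Clca1 has also been an older symbol of Clca3a1. Because the deposited table lists Clca3a1 in a row of its own, its Clca1 row is taken here to be the gene that RefSeq now calls Clca1. Clca1 was the most abundant of the 10 members in the tamoxifen groups. Its FPKM was 66.7 in vehicle, 143.1 and 144.1 with estradiol, 3364 and 2583 with tamoxifen, and 1683 and 1670 with the combination. The 4 groups did not overlap, although vehicle is a single library. Tamoxifen raised Clca1 by 5.44 ± 0.28 against vehicle (adjusted p = 9.81e-05), 43.6-fold on this scale, and by 4.35 ± 0.23 against estradiol (adjusted p = 0.000114). Estradiol against vehicle gave 1.10 ± 0.28 (adjusted p = 0.028; 0.0271 to 0.101 over the alternatives). That call was lost without either combination library (adjusted p = 0.0951 and 0.0947), with only the compared groups in the fit and with the replicate block.

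Close relatives of Clca1 were looked up after its values were seen, because their current names are not those of the list of chloride channels. Clca3b went from 0.136 in vehicle to 7.41 ± 0.53 with estradiol, 2.04 ± 0.258 with tamoxifen and 12.2 ± 1.06 with tamoxifen plus alpelisib (SD, n = 2 each). Clca3a2 went from 0.0589 to 4.86 ± 0.859, 1.15 ± 0.148 and 1.84 ± 0.0629 in the same order. Clca3a1 was at 0.578 in vehicle, 1.01 ± 0.0539 with estradiol, 0.193 ± 0.0426 with tamoxifen and 0.279 ± 0.0122 with the combination. Its difference between tamoxifen and vehicle was -0.40 ± 0.15 (adjusted p = 0.073; 0.0146 to 0.197 over the alternatives), and it passed with no filter and without estradiol 1. In all 3 relatives the estradiol mean was above the tamoxifen mean, unlike in Clca1. Related Clca copies can share reads, and the sources used here do not state how the authors assigned these. Ano1 itself was at 1.85 in vehicle, 0.91 ± 0.0619 with tamoxifen and 2.84 ± 0.0205 with the combination.

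Sodium absorption was represented by the epithelial sodium channel, which needs its alpha subunit Scnn1a together with the beta and gamma subunits Scnn1b and Scnn1g for full current. The subunits did not move together. The FPKM of Scnn1a was 15.5 in vehicle, 2.17 and 1.33 with estradiol, 0.603 and 0.674 with tamoxifen, and 1.34 and 1.45 with the combination. It fell in every treated group, by -3.33 ± 0.21 with tamoxifen (adjusted p = 0.000172), -2.60 ± 0.21 with estradiol (adjusted p = 0.00078) and -2.79 ± 0.21 with the combination (adjusted p = 0.000373) on the log2 scale. The 1 vehicle library sets all 3 differences. Tamoxifen was below estradiol by -0.73 ± 0.17 (adjusted p = 0.0154), a call lost without either tamoxifen library (adjusted p = 0.0661 and 0.0565; 0.00712 to 0.0661 over the alternatives), and the combination overlapped estradiol.

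Scnn1b was low throughout, at an FPKM of 0.380 in vehicle, 1.43 and 1.65 with estradiol, 0.390 and 0.381 with tamoxifen, and 0.422 and 0.300 with the combination. It stood out only in the estradiol libraries, which were the only ones to reach an FPKM of 1. Scnn1b rose with estradiol against vehicle (0.88 ± 0.16, adjusted p = 0.0083; 0.00774 to 0.0937 over the alternatives, the call being lost with only the compared groups in the fit) and was lower with tamoxifen than with estradiol (-0.87 ± 0.13, adjusted p = 0.00273). Between tamoxifen and vehicle the difference was 0.01 (95% interval -0.37 to 0.38). Scnn1g was never above 0.0844 (vehicle), was listed at 0 in both tamoxifen libraries and in estradiol 2, and at 0.0761, 0.0188 and 0.0606 in estradiol 1 and the combination libraries. Given the estimated depth and its transcript of 2991 bases, these values would be about 4.7 fragments in vehicle. They would be about 1 to 3.8 in the other libraries that list it above 0. These fragment numbers depend on the window preset for the depth estimate. Scnn1g was not tested, and no difference can be read from values this low.

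Car2, the cytosolic carbonic anhydrase that makes bicarbonate and protons from carbon dioxide, was abundant in every library. Its FPKM was 90.3 in vehicle, 184.0 and 160.9 with estradiol, 186.8 and 202.3 with tamoxifen, and 227.4 and 234.8 with the combination. Vehicle was lowest and the combination highest, without overlap between groups. Car2 rose with tamoxifen (1.10 ± 0.21, adjusted p = 0.00819; 0.00153 to 0.0568 over the alternatives), estradiol (0.92 ± 0.21, adjusted p = 0.0173; 0.0159 to 0.162 likewise) and the combination (1.35 ± 0.21, adjusted p = 0.00466; 0.00087 to 0.0525). With only the compared groups in the fit the tamoxifen call was lost (adjusted p = 0.0568). The estradiol call was lost then too, with the replicate block, and without either combination library (adjusted p = 0.0725 and 0.0723) and that of the combination without combination library 2 (adjusted p = 0.0525). Tamoxifen and estradiol differed by 0.18 ± 0.17 (adjusted p = 0.424).

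Car2 is also a major protein of red blood cells, and erythroid markers differed between the groups. Their summed FPKM over 7 genes was 36.2 in vehicle, 89.1 to 129.9 with estradiol, 1116 to 1535 with tamoxifen and 292.4 to 312.2 with tamoxifen plus alpelisib. The highest Car2 values were in the combination libraries, which held less than a tamoxifen library of these transcripts. Of 5 tested erythroid markers 5 rose with tamoxifen against vehicle and 0 fell, where 14.9% of all genes rose and 24.1% fell. The part of red blood cells in the Car2 values was not tested.

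**Figure D2:**
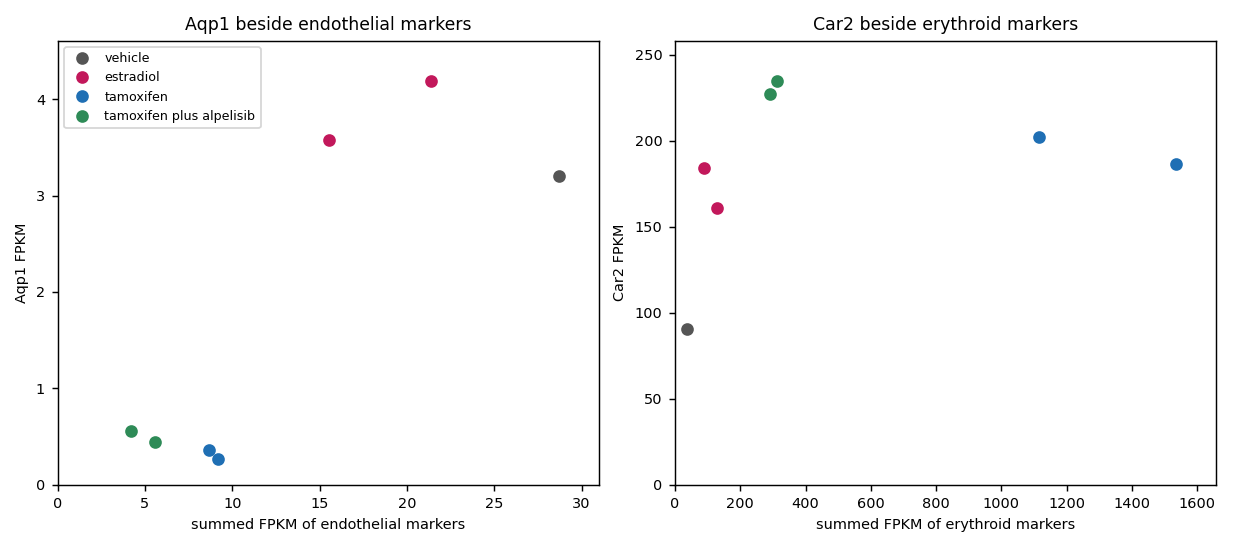
Left, Aqp1 FPKM (vertical axis) against the summed FPKM of 12 endothelial markers (horizontal axis); right, Car2 FPKM against the summed FPKM of 7 erythroid markers; each point is 1 of 7 libraries, coloured by group. The 4 libraries with tamoxifen have Aqp1 at 0.556 or below and endothelial sums of 9.19 or below, while Car2 is highest in the combination libraries and the erythroid sum in the tamoxifen libraries.

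Adding alpelisib to tamoxifen asks what PI3K alpha inhibition changes in epithelium exposed to tamoxifen. By limma 0 of the 9 tested members passed, while 11.7% of all genes did, and 4 members had an unadjusted p under 0.05, as did 29.1% of all genes. The share of 11.7% rests on 1445 genes, which fell to 18 and 14 without combination library 1 and 2, 301 and 692 without tamoxifen 1 and 2, 870 with no filter and 589 with the replicate block. The 4 members were Clca1, from 2973 ± 552.3 to 1677 ± 9.14 FPKM (SD, n = 2 each; log2 -0.81, 95% interval -1.38 to -0.25, adjusted p = 0.0745), Aqp8 (-0.62, -1.12 to -0.12, adjusted p = 0.109), Scnn1a (0.55, 0.12 to 0.97, adjusted p = 0.0976) and Aqp3 (0.79, 0.14 to 1.44, adjusted p = 0.113). The intervals are for single genes and are not adjusted. With only the compared groups in the fit, Aqp8 (adjusted p = 0.0289) and Scnn1a (adjusted p = 0.0474) passed. Aqp8 and Scnn1a passed when either estradiol library was left out (adjusted p = 0.0354 and 0.0368 for Aqp8, 0.0367 and 0.0374 for Scnn1a; 0.0289 to 0.398 and 0.0367 to 0.403 over the alternatives), and Aqp3 passed without tamoxifen 2 (1.20, adjusted p = 0.0313; 0.0313 to 0.427). The combination overlapped tamoxifen alone in Aqp5 and Scnn1b. For Cftr the interval was -0.48 to 0.13, for Car2 -0.16 to 0.66 and for Aqp1 -0.14 to 0.52.

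Against estradiol the combination differed beyond the threshold in 6 members, 4 higher and 2 lower, where 53.2% of all genes were called, 15.7% higher and 37.5% lower. Tamoxifen alone differed in 6, with 3 higher (Aqp5, Aqp8 and Clca1) and 3 lower (Aqp1, Scnn1a and Scnn1b), where 48.5% were called, 12.3% higher and 36.2% lower. Aqp5 (3.91 ± 0.22), Clca1 (3.54 ± 0.23), Aqp8 (1.28 ± 0.21) and Aqp3 (1.14 ± 0.27) were higher in the combination than with estradiol. Aqp1 (-1.70 ± 0.14) and Scnn1b (-0.90 ± 0.13) were lower. Their adjusted p lay between 0.000114 and 0.013. Cftr (0.07 ± 0.13, adjusted p = 0.66) and Scnn1a (-0.19 ± 0.17, adjusted p = 0.403) overlapped between these groups. After median-of-ratios scaling the median over all genes went from -0.26 to 0.02 in both comparisons with estradiol, the share of higher calls from 25.4% to 52.9% for tamoxifen and 29.6% to 53.1% for the combination, and Car2 then also passed against estradiol, at 0.53 with tamoxifen (adjusted p = 0.0202) and 0.79 with the combination (adjusted p = 0.00385).

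**Figure D3:**
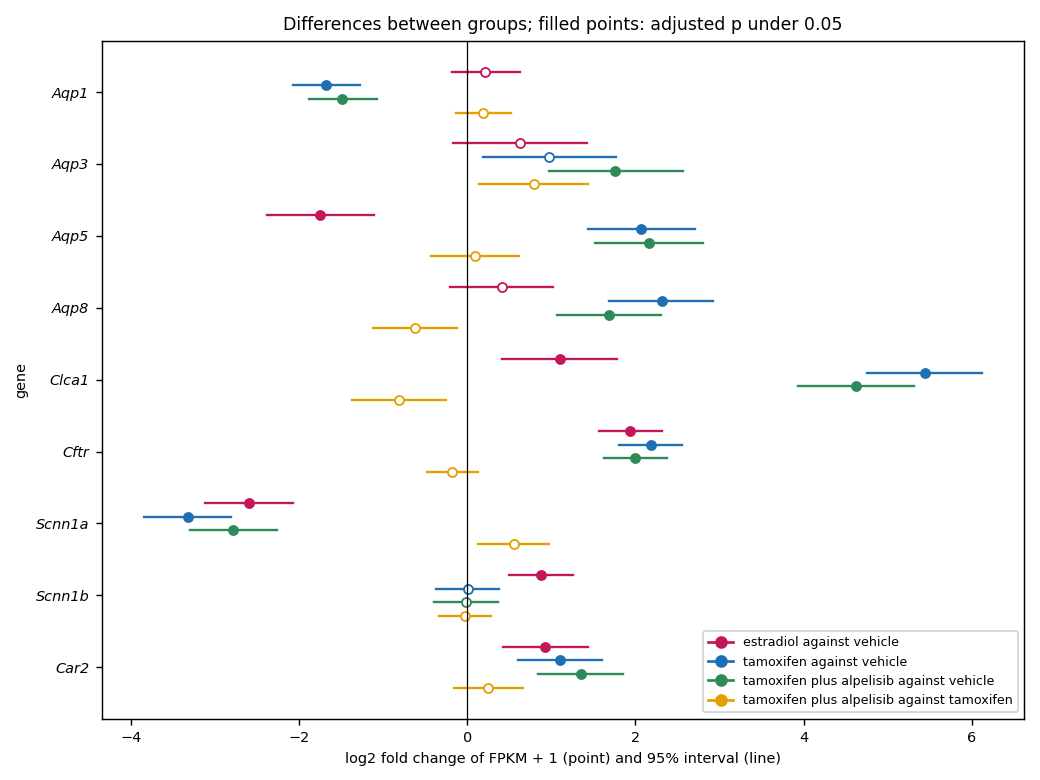
Log2 fold change of FPKM + 1 (horizontal axis, points) with 95% intervals (lines) for the 9 tested genes (vertical axis) in 4 comparisons; filled points passed an adjusted p of 0.05. Aqp5 lies at 2.07 with tamoxifen and -1.75 with estradiol, Scnn1a is low in all 3 comparisons with vehicle, and no point of the comparison of tamoxifen plus alpelisib with tamoxifen is filled.

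Other genes of fluid transport were grouped in lists, and those named are mostly the genes of lowest p in their list. Of the 15 other carbonic anhydrases 6 were tested, and 3 rose and 1 fell with tamoxifen against vehicle (median log2 fold change 0.58, against -0.12 over all genes). Over all genes 14.9% rose and 24.1% fell in that comparison. Car12, a membrane enzyme facing the lumen or the tissue fluid, was present at an FPKM of 3.004 in vehicle, 15.9 and 13.6 with estradiol, 261.2 and 251.1 with tamoxifen, and 118.0 and 121.5 with the combination. With tamoxifen it was thus higher than Car2 in both libraries. It rose by 6.01 ± 0.17 with tamoxifen (adjusted p = 2.24e-05) and was lower with alpelisib added (-1.09 ± 0.14, adjusted p = 0.00882). Car15, anchored to the membrane by a lipid, rose from 0.559 to 9.35 ± 2.04 (SD, n = 2) with tamoxifen (2.72 ± 0.26, adjusted p = 0.000688) and fell to 2.53 ± 0.261 with alpelisib added (-1.54 ± 0.21, adjusted p = 0.0101). The alpelisib calls of both genes were lost without either combination library, and that of Car12 also without tamoxifen 1. The mitochondrial Car5b rose by 0.78 ± 0.17 with tamoxifen (adjusted p = 0.014).

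Anion exchangers and chloride channels did not share 1 direction. Slc26a4, the chloride and bicarbonate exchanger pendrin, was present at an FPKM of 0.0327 in vehicle, 11.6 and 10.96 with estradiol, 2.05 and 1.64 with tamoxifen, and 9.16 and 9.38 with the combination. It rose with tamoxifen against vehicle (1.46 ± 0.16, adjusted p = 0.00119) and again with alpelisib added (1.85 ± 0.13, adjusted p = 0.0031), a call lost without either combination library (adjusted p = 0.0616 and 0.062; 0.00142 to 0.062 over the alternatives). Of 8 tested exchangers 1 rose and 1 fell with tamoxifen, where 14.9% of all genes rose and 24.1% fell. The 1 that fell was Slc4a3 (-1.29 ± 0.17, adjusted p = 0.00201). Of 15 tested chloride channel genes 2 rose and 4 fell, a share near the 39.0% called over all genes. Clic4, an intracellular chloride channel protein, fell from 43.5 to 5.13 ± 0.276 with tamoxifen (-2.86 ± 0.16, adjusted p = 0.000109) and stood at 32.1 ± 0.856 with alpelisib added (2.43 ± 0.13, adjusted p = 0.00156). Both libraries with tamoxifen alone lay below the other 5. Stromal markers were also lower with tamoxifen. Of 14 tested, 13 fell and 0 rose against vehicle, where 24.1% of all genes fell and 14.9% rose. With alpelisib added to tamoxifen, 3 were higher and 1 lower, where 6.93% of all genes were higher and 4.81% lower. The part of stromal cells in the Clic4 values was not tested. Smaller changes with tamoxifen in this list were those of Clcn3 (0.74 ± 0.19, adjusted p = 0.0226), Clcn5 (-1.24 ± 0.30, adjusted p = 0.02) and Ano1 (-0.58 ± 0.15, adjusted p = 0.0274). The Ano1 call was lost when any tamoxifen or combination library was left out, after scaling, with the replicate block and with only the compared groups in the fit (0.0186 to 0.087 over the alternatives). That of Clcn3 was lost without tamoxifen 1 or either combination library and with only the compared groups (0.0174 to 0.0753), and that of Clcn5 without tamoxifen 2 and with no filter (0.00531 to 0.0737). Ano1 was higher with alpelisib added (1.01 ± 0.13, adjusted p = 0.00791), a call lost without tamoxifen 1 or either combination library.

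**Figure D4:**
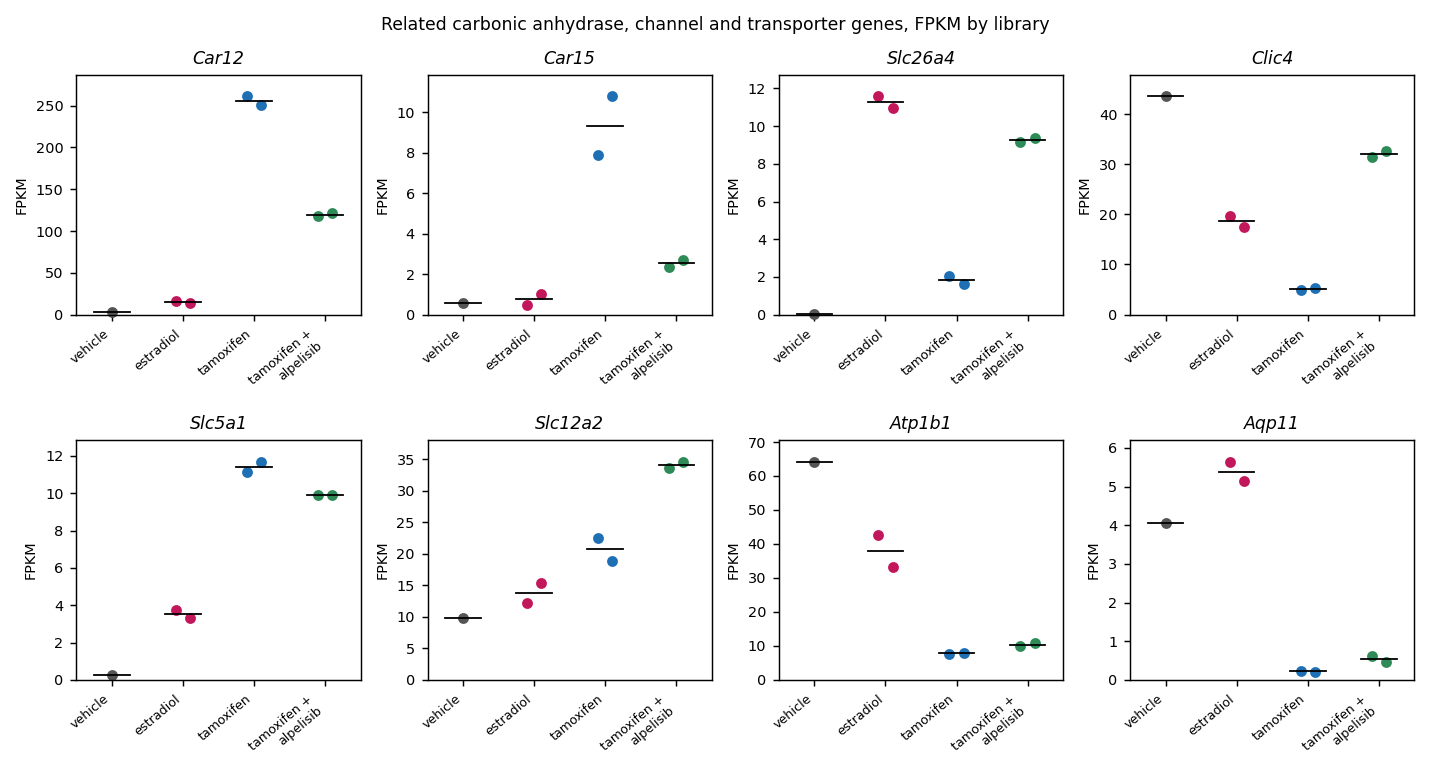
FPKM (vertical axes, linear, from 0) of 8 related genes in 7 libraries by group (horizontal axes); points are libraries and the black line is the group mean. Car12 and Car15 are highest with tamoxifen alone, Clic4 is lowest there, and Atp1b1 and Aqp11 are low in all 4 libraries that received tamoxifen.

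Regulators of the sodium channel include proteases that cleave its subunits and kinases that hold it at the membrane. Of 17 tested 2 rose and 5 fell with tamoxifen against vehicle, again a share near the 39.0% over all genes. Tmprss4, a membrane protease known to activate the channel, rose from 2.80 to 85.0 ± 0.802 FPKM (SD, n = 2; 4.50 ± 0.17, adjusted p = 4.72e-05). The kinase gene Sgk1, which lengthens the channel's stay at the membrane, fell from 36.0 to 6.77 and 12.6 with tamoxifen (-1.85 ± 0.32, adjusted p = 0.00585) and was at 29.6 and 32.4 with the combination (1.64 ± 0.26, adjusted p = 0.0155). The latter call was lost without either combination library (adjusted p = 0.115 and 0.137) and with no filter on low values (adjusted p = 0.0595; 0.00629 to 0.137 over the alternatives). Usp2, a deubiquitinase, fell by -1.44 ± 0.26 on the log2 scale (adjusted p = 0.00691).

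Of 22 tested genes that set the sodium and potassium gradients, 3 rose and 8 fell with tamoxifen (median -0.67, against -0.12 over all genes). Over all genes 14.9% rose and 24.1% fell in that comparison. Atp1b1, the beta subunit of the sodium pump, fell from 64.2 to 7.82 ± 0.15 (-2.89 ± 0.19, adjusted p = 0.000201) and remained low at 10.4 ± 0.508 with alpelisib. Slc5a1, the sodium and glucose cotransporter, rose from 0.289 to 11.4 ± 0.381 (3.27 ± 0.15, adjusted p = 7.19e-05). Slc12a2, the cotransporter that loads chloride into secreting cells, rose from 9.79 to 20.7 ± 2.57 (1.0 ± 0.20, adjusted p = 0.0101) and to 34.1 ± 0.723 with alpelisib added (0.70 ± 0.16, adjusted p = 0.044). This last call was lost when any of the 4 libraries compared was left out, after scaling (adjusted p = 0.0508), with no filter (adjusted p = 0.0824) and with the replicate block (adjusted p = 0.104; 0.0304 to 0.278 over the alternatives). Its relative Slc12a4 fell by -1.96 ± 0.17 with tamoxifen (adjusted p = 0.000446). Among the 8 other aquaporins 1 was tested: Aqp11, a channel of intracellular membranes, fell from 4.07 to 0.22 ± 0.0177 with tamoxifen (-2.05 ± 0.16, adjusted p = 0.000321) and was at 5.39 ± 0.361 with estradiol, a pattern near that of Aqp1. In the comparison of tamoxifen plus alpelisib with tamoxifen, 2 of 6 carbonic anhydrases fell and 0 rose, and of the other lists 1 of 8 exchangers, 2 of 15 chloride channel genes, 1 of 17 sodium channel regulators and 1 of 22 gradient genes rose, with 0 lower, where over all tested genes 6.93% were higher and 4.81% lower.

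For each tested member the 3 genes with the most similar profile were listed, by the root mean square difference of centred log2(FPKM + 1) values over the 7 libraries. Clca1, whose own values spanned 5.64 log2 units, was nearest to the airway-type protease gene Tmprss11d (0.19), the adenosine deaminase gene Ada (0.29) and Car12 (0.32). Aqp5, spanning 4.26, was nearest to the uroplakin gene Upk1a (0.22), Dkkl1 (0.31) and Fkbp11 (0.31), which were also lowest with estradiol. Scnn1a, spanning 3.37, was nearest to Zbtb42 (0.13), the actin-severing protein gene Gsn (0.14) and Fam118a (0.14), each highest in vehicle. Aqp8 was nearest to Galnt3 (0.15), which starts O-glycan chains, Mall (0.15) and Fuca1 (0.16). Cftr was nearest to the pyrophosphate transporter gene Ank (0.08), Naip6 (0.12) and the RNA sensor gene Dhx58 (0.12), all low in vehicle alone. Aqp1 was nearest to Zc3h7b (0.12), Hnrnpll (0.13) and Tmem44 (0.13). With 7 libraries in 4 groups, many genes share so simple a profile, and the distances are a description.

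**Figure D5:**
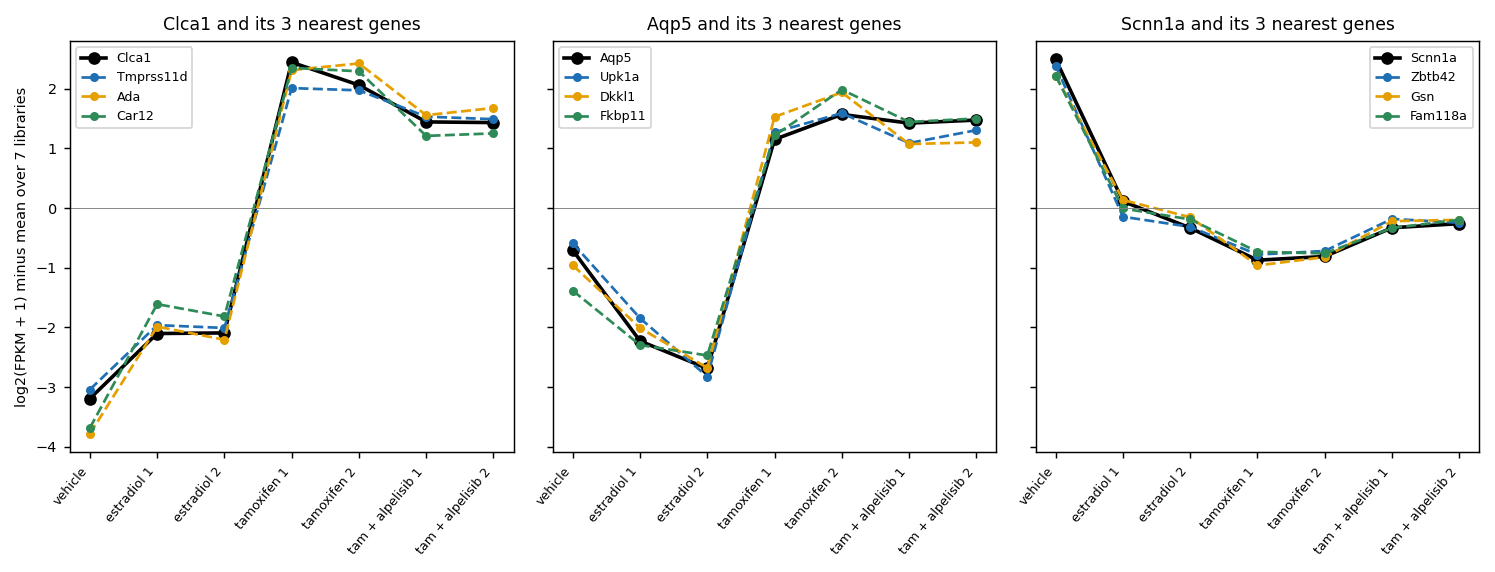
Log2(FPKM + 1) minus each gene's mean over 7 libraries (vertical axis, shared) across the libraries (horizontal axis) for Clca1, Aqp5 and Scnn1a (black) and the 3 genes nearest to each (dashed). Lines join libraries only to guide the eye; Clca1 with Tmprss11d, Ada and Car12 is high in the tamoxifen libraries, and Scnn1a with Zbtb42, Gsn and Fam118a is high in vehicle.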

How the data were processed

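RNA from endometrial epithelial cells of 7 libraries was sequenced with TruSeq libraries, per the labels' protocols. Per the submitters' processing notes the authors used CASAVA, Bowtie and Cufflinks, with no versions named. The only build they name is hg19, although the symbols are mouse symbols, so no gene position from the files is given. The deposited values are FPKM, read as such because they are not whole numbers. The assignment of reads from near-identical copies is not stated there.

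Symbols were matched to mouse RefSeq names regardless of case (23292 of 24353). The 12314 genes reaching 1 FPKM in any library were fitted on log2(FPKM + 1) with limma-trend: 4 group means over 7 libraries, 3 residual degrees of freedom, a prior of 3.27, and Benjamini-Hochberg adjustment within each of 6 comparisons. The pseudocount of 1 understates changes of low genes. The single vehicle library is assumed to vary like the others, which did not vary alike. The median absolute log2 difference between the 2 libraries was 0.250 with estradiol, 0.188 with tamoxifen and 0.100 with the combination. The pooled spread mixes these, so each SE and p also draws on groups outside its comparison. Named genes were all members, up to 3 of lowest p per related list in each of 2 comparisons (tamoxifen against vehicle, tamoxifen plus alpelisib against tamoxifen), and the 3 nearest profiles; not all are printed. Members and lists were chosen with earlier results of these data known. Depth was estimated from 3021 genes with 1 transcript of over 1000 bases, using only values inside the preset window of 0.045 to 0.075. That window bounds the estimate. In simulated data with 200 changed genes, 96.5% to 100% of 4-fold changes and 0% to 76% of 2-fold changes were recovered, with at most 18 false calls. Between tamoxifen plus alpelisib and tamoxifen 69% of 2-fold changes were recovered. The changed genes had a mean log2(FPKM + 1) above 2, and Aqp1, Aqp3, Aqp8, Scnn1a and Scnn1b lay below that. Every comparison of the real data called more than 200 genes. The recovery rates therefore do not carry over to these members. Tools were limma 3.58.1 (R 4.3.3), and pandas 2.3.3, numpy 2.4.6 and matplotlib 3.10.9 (Python 3.11.15).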

Additional observations from a re-analysis of the deposited data

How the results depend on the processing

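Alternatives were median-of-ratios scaling, no filter, a filter asking 1 FPKM of 2 libraries, a pseudocount of 0.1, robust empirical Bayes, only the compared groups in the fit, the mouse number as a replicate block, and leaving out each library; vehicle, having 1, could not be left out. For single genes, 1118 values kept direction and call, 24 gained and 51 lost a call, and 11 changed sign, none of them called on either side. The number of members called, leaving out 1 library, ranged from 7 to 8 for tamoxifen against vehicle (7), 4 to 7 for estradiol against vehicle (6), 7 to 8 for the combination against vehicle (8), 0 to 2 for the combination against tamoxifen (0), 5 to 6 for tamoxifen against estradiol (6) and 5 to 6 for the combination against estradiol (6). With only the compared groups in the fit it was 3 for estradiol against vehicle, with 3 libraries, and 2 for the combination against tamoxifen; the cause was not tested. Over all genes, 14 to 1909 passed in that last comparison over the alternatives against 1445, 1597 to 5063 for estradiol against vehicle against 4366, 1900 to 6985 for the combination against vehicle against 4299, and 3871 without combination library 1 and 3936 without 2 for the combination against estradiol against 6548. Signs changed under scaling for Scnn1b, combination against vehicle (0.03), and Scnn1a, combination against estradiol (0.04). On leaving out 1 library they changed, with ranges over the libraries left out, for Scnn1b in the combination against vehicle (-0.09 to 0.04) and against tamoxifen (-0.09 to 0.04), Aqp5 (-0.12 to 0.30), Clcn5 (-0.16 to 0.07, and 0.02) and Clcn3 (-0.20 to 0.07) in the combination against tamoxifen, Aqp3 in tamoxifen against estradiol (-0.06 to 0.76), and Cftr (-0.02 to 0.16) and Scnn1a (-0.41 to 0.04) in the combination against estradiol.

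Mouse numbers come from different animals and do not pair the groups. The differences between mouse 1 and mouse 2 correlated across genes at -0.40, -0.18 and 0.27 between the groups. The signs of these correlations depend on how the mice were numbered, so they do not decide on pairing. With the replicate block the members called numbered 7, 4, 8, 0, 6 and 6 in the order above, the estradiol calls of Clca1 (adjusted p = 0.0821) and Car2 (adjusted p = 0.0588) being lost, and 589 genes passed for the combination against tamoxifen.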
